A study of Mus musculus with 18 samples.

Results

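The genes described here encode the proteins of the cytosolic ribosome. They were found by name, as every line of the deposited expression table whose gene name is Rpl or Rps followed by a number and an optional letter, or Rplp0, Rplp1 or Rplp2, together with paralogs such as Rpl3l that the same pattern takes in. Ribosomal S6 kinases and pseudogenes were left out. The pattern found 67 of 30848 lines, 39 for the large subunit and 28 for the small subunit. The RNA came from the mouse embryonic stem (ES) cell line AB2.2 and from a second mouse ES line, PL2F8. Both were sampled when leukemia inhibitory factor (LIF), a cytokine that holds back differentiation of such cells, was withdrawn, which is day 0 and the control, and on days 2, 4, 6 and 8 thereafter. For either line, duplicate samples cover every day up to day 6, whereas day 8 rests on 1, so that 18 Illumina mouse bead arrays were measured. The labels give no allele, treatment other than LIF removal, or feeder condition, and do not say whether replicate arrays came from separate cultures, so the p-values measure only the spread between these arrays, which may be technical.

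Each cytosolic ribosome is built from a small subunit, which reads the mRNA, and a large subunit, which joins amino acids. Ribosomal proteins are made in nearly equal amounts, and most of their mRNAs begin with a stretch of pyrimidines, the 5′ terminal oligopyrimidine (TOP) motif, through which the kinase complex mTORC1 controls their translation. ES cells divide fast and hold much of these mRNAs. A few genes of the family have paralogs with narrow expression, among them Rpl3l in muscle and Rpl39l in testis.

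The members were among the brightest probes of every array. Of the 100 probes with the highest deposited signal, between 31 and 34 belonged to members. Of the 67 members, 30 had a mean signal of at least 0.5 of that array's highest probe and are called near-saturated here, without evidence that the scanner limit was reached, since only 1 to 12 probes lay within 10% of the highest. The median member signal was 14119 to 20325 on 15 arrays. It was 7836 and 7462 on the PL2F8 day 6 arrays and 1852 on the PL2F8 day 8 array, which were dim throughout, with mean signals over all probes of 137.4, 134.8 and 60.1 against 283.6 to 492.7. The share of detected probes was 40% and 37.8% at PL2F8 day 6 and 20.9% at PL2F8 day 8, against 41.9% to 45% elsewhere. Values from those 3 arrays depend on how the arrays are scaled. After scaling each array to its median, the median gene stood at -1.08 at PL2F8 day 6. In replicate pairs the members differed less than genes at large, with a standard deviation of the log2 difference of 0.095 to 0.158 against 0.152 to 0.333. Rpl17, Rps20 and Rps23 did not reach the detection filter, Rpl17 and Rps20 on no array and Rps23 on 1 of 18, and 64 members were tested.

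**Figure D1:**
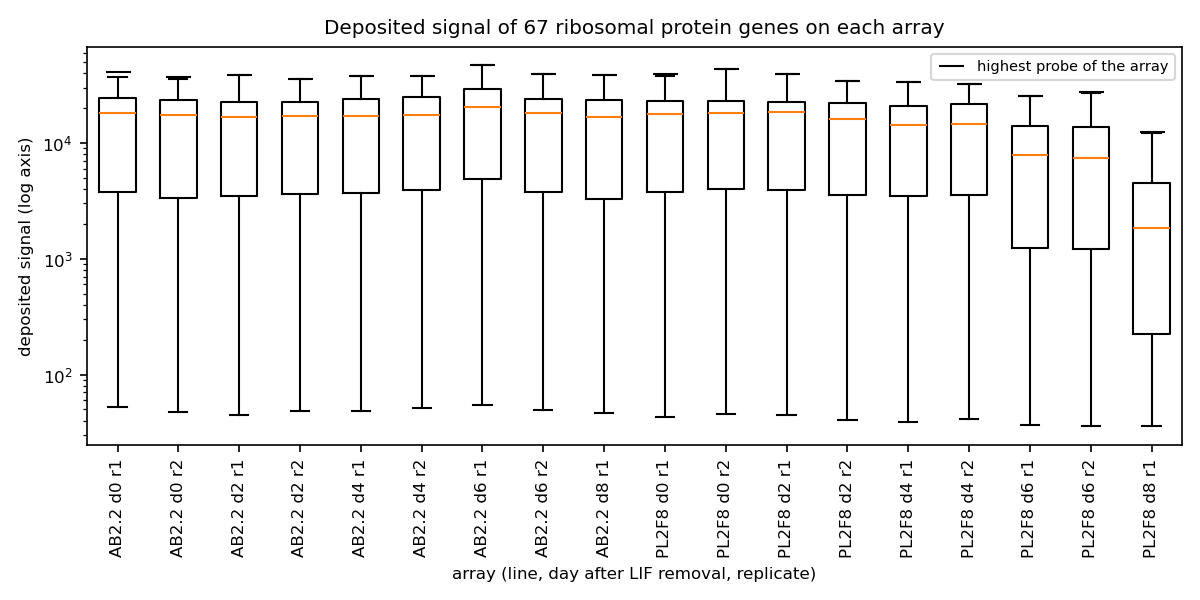
Deposited signal of the 67 members on each array, on a log axis. Boxes span the quartiles with the median as a line, whiskers reach the lowest and highest member, and short bars mark the array's highest probe. The members' median falls from 14119 to 20325 on 15 arrays to 7836, 7462 and 1852 on the 3 dim PL2F8 arrays.

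The defining markers of the labelled cells were present. All 8 ES cell markers, including the pluripotency factors Pou5f1 and Nanog, were detected on every day 0 array. All 8 fell by day 6 over both lines, with a median of -1.32. The summed signal of 5 visceral endoderm markers rose in AB2.2 from 355 at day 0 to 21100 at day 6, and in PL2F8 from 167 to 1050. The summed signal of the 4 feeder fibroblast markers tested lay between 257 and 1130 in all groups, with Col1a1 and Col6a1 undetected in several of them. Thy1 was detected on every array, and Dcn on every PL2F8 array and in AB2.2 from day 4 on. Col6a1 and Dcn, undetected at AB2.2 day 0, were detected on both AB2.2 day 6 arrays, while Thy1 fell by 0.85 there. Bulk RNA cannot tell fewer cells of a type from less RNA per cell. The part that the different marker levels of the lines have in the results below was not tested.

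By day 4 about as many ribosomal protein mRNAs were called changed as not, most of them by less than 1.5-fold. At day 2, 9 members were higher and 7 lower over both lines, against 22.2% and 23.3% of 16113 genes. At day 4, 23 were higher and 10 lower, against 32.2% and 28.2% of genes. Of these, 4 rose and 2 fell by at least 1.5-fold, against 12.8% and 10.7%. The median member changed by 0.05 on the log2 scale at day 2 and by 0.08 at day 4, against 0 and 0.03 for all genes. The median size of the change at day 4, whatever its direction, was 0.14 for members and 0.28 for all genes. That 0.14 rests on the 30 near-saturated members, whose median size was 0.09, with changes of -0.27 to 0.23, while the 34 others had a median size of 0.36. Because members fill much of the top of each array's ranking, quantile normalization can reduce a shift that all of them shared. By how much was not tested. After scaling each array to its median instead, the members' median was -0.06 at day 4, the same as that of all genes. Of the members 6 were then higher and 16 lower, against 25% and 37% of genes.

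**Figure D2:**
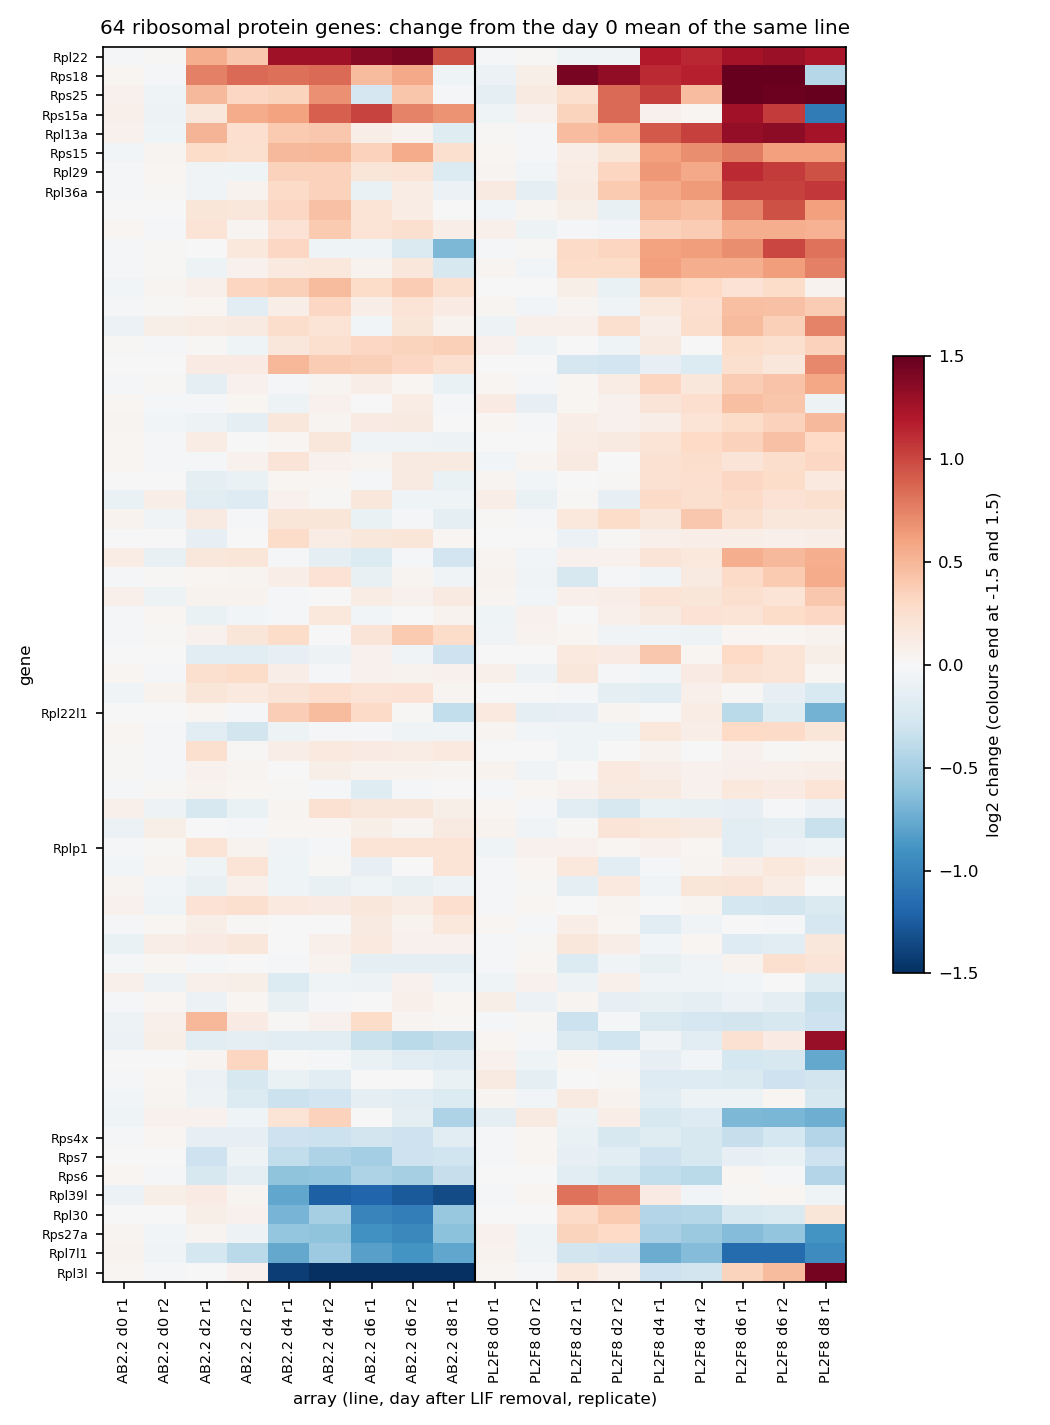
Change in log2 signal of the 64 tested members (rows) on each of 18 arrays (columns) from the day 0 mean of the same line. Red is higher and blue lower, colours end at -1.5 and 1.5, and rows are ordered by their mean change over days 4 and 6, with some of the members described in the text labelled. Most rows stay pale, Rpl22 rises and Rpl7l1 falls in both lines, and Rpl3l falls in AB2.2 from day 4.

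Rpl22, a large-subunit protein that is dispensable for most cells but needed for αβ T cell development, showed the largest rise of all members at day 4. In AB2.2 its log2 signal was 9.84 and 9.88 at day 0, 10.41 and 10.27 at day 2, 11.13 and 11.13 at day 4, 11.23 and 11.27 at day 6, and 10.81 at day 8. In PL2F8 it was 10.69 and 10.72 at day 0, 10.64 and 10.65 at day 2, 11.89 and 11.84 at day 4, 11.95 and 12 at day 6, and 11.93 at day 8. The day 4 and day 6 arrays lay above all day 0 arrays of the same line, and PL2F8 rose only after day 2. The rise at day 4 was 1.27 in AB2.2 (SE 0.07, adjusted p = 1.6e-08) and 1.16 in PL2F8 (SE 0.07, adjusted p = 4.7e-08). At day 6 AB2.2 stood 2.63-fold above day 0. PL2F8 was higher by 1.27 at day 6, but after median scaling its change was -0.55, in a comparison where the median gene changed by -1.08. Its paralog Rpl22l1, which the Rpl22 protein is known to repress in mouse cells, had log2 signals of 7.25 and 7.24 at AB2.2 day 0 and 7.61 and 7.72 at day 4, a rise of 0.42 (adjusted p = 0.01). In PL2F8 it changed by 0.06 at day 4 (adjusted p = 0.7), and at day 6 by -0.29 (adjusted p = 0.046). After median scaling the PL2F8 day 6 value was -1.99. Rpl22l1 was called lower in neither line at day 4. At PL2F8 day 8, on 1 dim array whose lowest detected log2 signal was 6.89, Rpl22l1 was not detected. On the quantile-normalized values this gives a level at least 1.55-fold lower than at day 0.

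Of the 6 members called lower in both lines at day 4, Rpl7l1, Rps27a and Rpl30 are described first. Rpl7l1, a paralog of Rpl7, had log2 signals of 10.9 and 10.8 at AB2.2 day 0, 10.59 and 10.45 at day 2, 10.08 and 10.31 at day 4, 10.03 and 9.95 at day 6, and 10.07 at day 8. In PL2F8 it went from 11.04 and 10.94 through 10.72 and 10.68 to 10.24 and 10.34 at day 4, 9.83 and 9.83 at day 6 and 10.05 at day 8. Day 2 lay below day 0 without overlap in both lines, with falls of -0.33 (adjusted p = 0.013) and -0.29 (adjusted p = 0.026). At day 6 the change was -0.86 in AB2.2 (SE 0.09, adjusted p = 4.4e-06) and -1.16 in PL2F8 (SE 0.09, adjusted p = 2e-07), and a second, dimmer probe gave -0.46 and -1.34. After median scaling the PL2F8 day 6 value was -3.21. Rps27a, which is made as a fusion with ubiquitin and is one of the genes that supply it, went in AB2.2 from 11.76 and 11.67 at day 0 to 11.76 and 11.64 at day 2, 11.13 and 11.11 at day 4, 10.81 and 10.75 at day 6 and 11.1 at day 8. In PL2F8 it went from 11.36 and 11.24 to 11.63 and 11.6, then 10.81 and 10.74, 10.65 and 10.71, and 10.4. It was level or higher at day 2 and below day 0 from day 4 onward. The falls at day 4 were -0.6 and -0.53 (adjusted p = 2.6e-05 and 8e-05), and its second probe gave -0.85 and -1.21 at day 6. After median scaling its PL2F8 day 6 change was -2.65.

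Rpl30, a large-subunit protein, had log2 signals of 10.46 and 10.48 at AB2.2 day 0, 9.77 and 9.97 at day 4, and 9.48 and 9.43 at day 6. In PL2F8 the same days gave 10.1 and 10.08, 9.65 and 9.66, and 9.85 and 9.87. The arrays of days 4 and 6 lay below day 0 of their line. Those of day 2 did not, with 10.56 and 10.53 in AB2.2 and 10.38 and 10.48 in PL2F8. The day 2 change was 0.08 in AB2.2 (adjusted p = 0.51) and 0.34 in PL2F8 (adjusted p = 0.0044), which was called higher. The fall reached -1.02 in AB2.2 at day 6 (adjusted p = 2.4e-07) and -0.23 in PL2F8 (adjusted p = 0.02), where median scaling gave -2.26. A second probe gave -0.88 at AB2.2 day 6, but -0.06 at PL2F8 day 4 and 0.14 at PL2F8 day 6, so the fall in PL2F8 rests on the probe used. At PL2F8 day 8 Rpl30 changed by 0.18, which did not pass the test (adjusted p = 0.12).

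Smaller falls were shared by Rps6, Rps7 and Rps4x of the small subunit. Rps6, the protein that ribosomal S6 kinases phosphorylate, had log2 signals of 13.8 and 13.75 at AB2.2 day 0, 13.53 and 13.64 at day 2, 13.17 and 13.2 at day 4, 13.31 and 13.28 at day 6 and 13.43 at day 8. In PL2F8 it had 13.73 and 13.71, then 13.56 and 13.49, 13.35 and 13.32, 13.75 and 13.7, and 13.28. Both lines lay below day 0 at day 4, with changes of -0.59 (adjusted p = 1.5e-05) and -0.38 (adjusted p = 0.00056). At day 6 the PL2F8 arrays overlapped day 0, and the difference between the lines in their change was 0.48 (adjusted p = 0.0011), which turned to -0.63 after median scaling. Rps7 changed by -0.42 and -0.28 at day 4, and the X-linked Rps4x by -0.32 and -0.21, all called.

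The sequences around the annotated starts of 6 members called the same way in both lines at day 4, and of Rpl22l1 as the paralog of Rpl22, are shown, because TOP mRNAs begin with a run of pyrimidines at the start of transcription. Each window runs from 40 bases before to 20 bases from the start onward, in RefSeq's GRCm38.p6 table, and capitals mark the longest run of C and T of 8 or more bases within the stretch searched, from 20 bases before to 30 bases from the start onward on the transcribed strand. Runs outside that stretch, as at the head of the downstream Rpl22 window, are in lower case. The windows lie at chr4:152324396-152324455 and chr4:152325686-152325745 (Rpl22, plus strand, 2 annotated starts), chr3:28805468-28805527 (Rpl22l1, plus), chr17:46782637-46782696 (Rpl7l1, minus), chr4:86857348-86857407 (Rps6, minus), chrX:102189372-102189431 (Rps4x, minus), chr17:33955646-33955705 (Rps18, minus) and chr7:45128726-45128785 (Rpl13a, minus).
Rpl22, upstream start: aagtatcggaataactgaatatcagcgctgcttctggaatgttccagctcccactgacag
Rpl22, downstream start: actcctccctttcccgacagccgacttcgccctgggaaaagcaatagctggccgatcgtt
Rpl22l1: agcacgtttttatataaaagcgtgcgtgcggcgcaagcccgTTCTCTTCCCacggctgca
Rpl7l1: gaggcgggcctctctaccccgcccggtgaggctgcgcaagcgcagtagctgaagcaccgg
Rps6: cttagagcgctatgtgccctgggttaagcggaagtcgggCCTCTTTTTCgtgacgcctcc
Rps4x: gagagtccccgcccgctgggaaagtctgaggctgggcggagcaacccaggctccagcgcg
Rps18: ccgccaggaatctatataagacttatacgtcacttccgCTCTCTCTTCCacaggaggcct
Rpl13a: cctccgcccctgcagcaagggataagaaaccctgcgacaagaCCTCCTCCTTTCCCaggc
Rpl22l1, Rps6, Rps18 and Rpl13a hold such a run in the stretch searched, and neither Rpl22 start, nor Rpl7l1 nor Rps4x, does. A run of at least 8 was found at 46.8% of the 62 annotated starts of the 52 members in the table and at 19% of all 32851 starts. The letters CCGGAAG, a motif of ETS factors, lay on either strand of the 300 bases in 38.7% of member starts and 8.86% of all. These matches describe the letters only, and members that rose and members that fell are found on both sides.

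Rps18 and Rps15a, both of the small subunit and both measured by dim probes, were called higher at day 6 in both lines. Rps18 had log2 signals of 5.16 and 5.11 at AB2.2 day 0, 5.89 and 5.98 at day 2, 5.96 and 5.98 at day 4, 5.61 and 5.7 at day 6, and 5.07 at day 8. In PL2F8 it had 4.81 and 4.99, 6.32 and 6.23, 6.02 and 6.07, 6.98 and 6.83, and was not detected at day 8. It was above day 0 at days 2, 4 and 6 in both lines, and back at day 0 at AB2.2 day 8. The day 2 rise was 0.8 in AB2.2 and 1.38 in PL2F8 (adjusted p = 1.4e-05 and 1.4e-07). At PL2F8 day 6 its change was 0.78 after median scaling. Rps15a rose by 0.88 in AB2.2 at day 6 (adjusted p = 0.00091), and in PL2F8 its day 6 value of 1.16 became -0.1 after median scaling.

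Rpl13a, which in human myeloid cells is also released from the ribosome to silence inflammatory mRNAs, had log2 signals of 11.39 and 11.26 at AB2.2 day 0, 11.84 and 11.58 at day 2, 11.72 and 11.73 at day 4, 11.43 and 11.38 at day 6, and 11.14 at day 8. In PL2F8 it had 11.34 and 11.3, 11.78 and 11.84, 12.24 and 12.35, 12.64 and 12.66, and 12.57. In AB2.2 the level was above day 0 at days 2 and 4 only, while in PL2F8 it stayed above. The day 4 rise was 0.4 in AB2.2 (adjusted p = 0.0026) and 0.97 in PL2F8 (adjusted p = 2.1e-06). At PL2F8 day 6 the value was 1.33, and after median scaling it was -0.38 in a comparison where the median gene changed by -1.08. Rps25, a small-subunit protein needed by several viral internal ribosome entry sites, had 11.41 and 11.68 at PL2F8 day 0, 12.57 and 12.01 at day 4, and 13.11 and 13.01 at day 6, but 11.46 and 12.13 at AB2.2 day 6, which overlaps the day 0 values of 11.78 and 11.65. Its replicates differed more than those of most members, and its day 6 change over both lines was 0.8 (SE 0.17, adjusted p = 0.0013). Without the 3 dim arrays, which leaves AB2.2 alone, it was 0.08 (adjusted p = 0.81). Rps15, Rpl29, Rpl36a, Rpl4 and Rps10 rose at day 4 in both lines, by 0.3 to 0.49 in AB2.2 and 0.37 to 0.66 in PL2F8. Rpl4 stood at -0.09 in PL2F8 after median scaling. A second, dimmer probe of Rpl29 gave -0.09 at PL2F8 day 4 against 0.61, so that rise rests on the probe used. The second probe of Rpl4 gave 0.5 there.

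**Figure D3:**
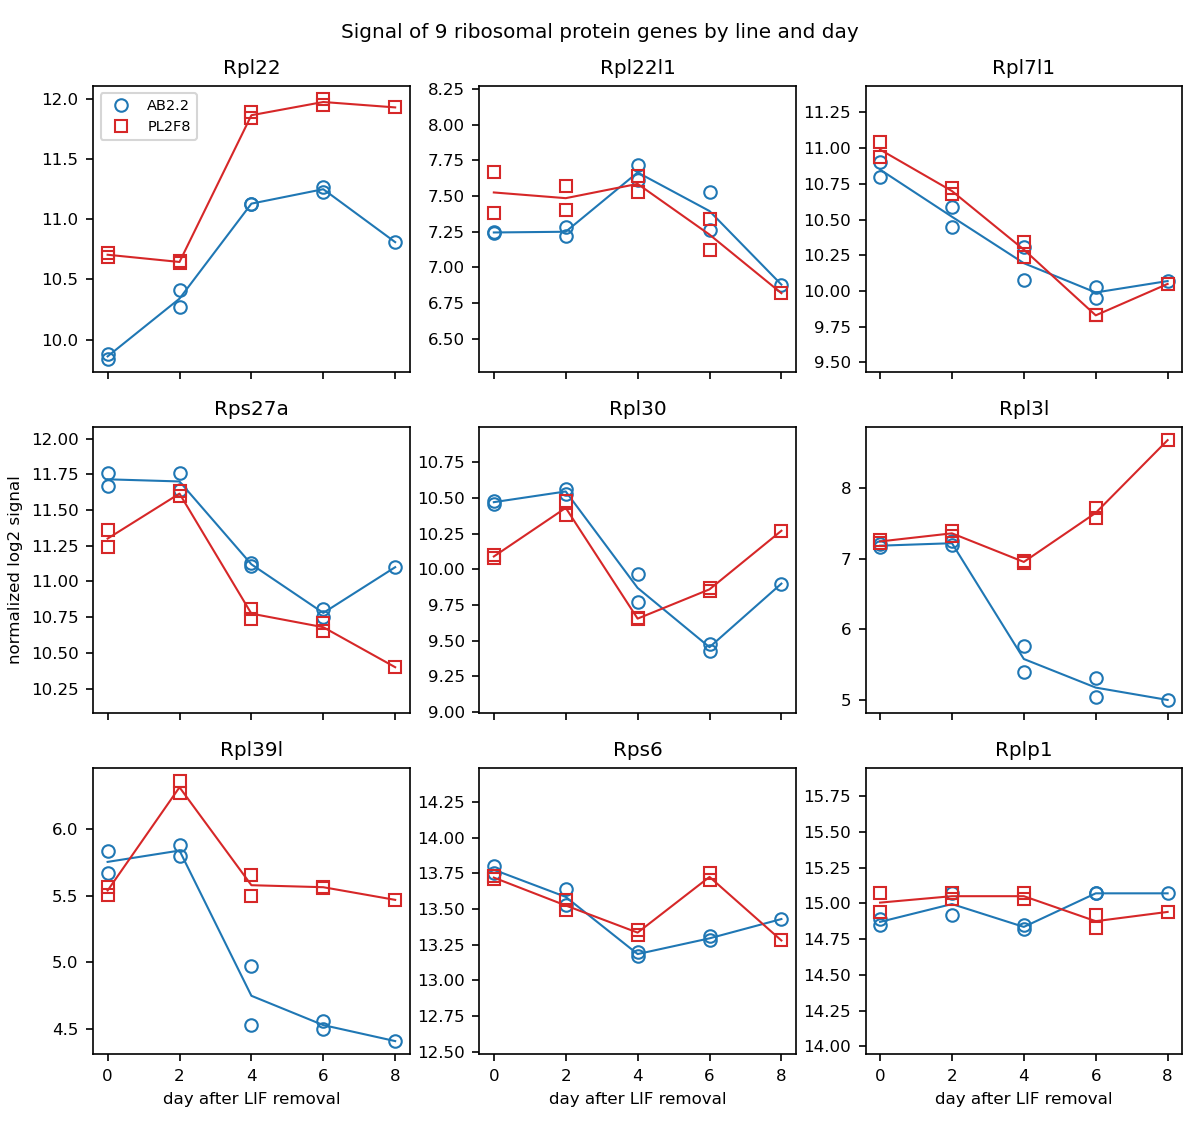
Normalized log2 signal of 9 members against day after LIF removal. Circles are AB2.2 arrays, squares PL2F8 arrays, and lines join the means; every panel spans at least 2 log2 units. Rpl22 rises and Rpl7l1 falls in both lines, and Rplp1 stays near 15. Rpl3l parts between the lines at day 4 and Rpl39l already at day 2.

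Among the 5 paralogs, Rpl3l and Rpl39l fell in AB2.2 from day 4. Rpl3l, the muscle paralog of Rpl3, had log2 signals of 7.21 and 7.16 at AB2.2 day 0, 7.19 and 7.25 at day 2, 5.77 and 5.39 at day 4, 5.31 and 5.04 at day 6, and 5 at day 8. In PL2F8 it had 7.27 and 7.22, 7.4 and 7.32, 6.94 and 6.97, 7.58 and 7.72, and 8.68. The line difference was 0.06 at day 0 and 0.14 at day 2, neither called, and 1.38 at day 4 (adjusted p = 1.5e-06). In AB2.2 it fell by 1.61 at day 4 (SE 0.12, adjusted p = 2.1e-07) and by 2.01 at day 6 (adjusted p = 2.2e-08). The PL2F8 change was -0.29 at day 4 (adjusted p = 0.057). At PL2F8 day 6 it was 0.41, and -1.35 after median scaling, so its direction there depends on the scaling. Rpl39l, the testis paralog of Rpl39, had 5.67 and 5.84 at AB2.2 day 0, 4.97 and 4.53 at day 4 and 4.56 and 4.5 at day 6, where it was not detected, at least 2.07-fold lower than day 0 (adjusted p = 2.1e-06). In PL2F8 it had 5.51 and 5.57 at day 0, 6.36 and 6.27 at day 2 and 5.66 and 5.5 at day 4. That is a rise of 0.78 at day 2 (adjusted p = 0.00027) and a change of 0.04 at day 4 (adjusted p = 0.81). At AB2.2 day 2 Rpl39l had 5.88 and 5.8, a change of 0.08 (adjusted p = 0.64). It was thus called higher in PL2F8 than in AB2.2 already at day 2, by 0.48 (adjusted p = 0.012). The visceral endoderm markers rose in the same AB2.2 groups, and their part in these falls was not tested. Rps27l, a p53-induced paralog of Rps27, changed by -0.04 at day 6 over both lines (adjusted p = 0.57).

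Rpl3 and Rpl39, the canonical partners of Rpl3l and Rpl39l, were not called in AB2.2 at day 6. Rpl3, which lies at the peptidyl transferase center, changed by -0.02 in AB2.2 at day 6 (SE 0.08, adjusted p = 0.83), with log2 signals of 14.19 and 14.25 at day 0 and 14.18 and 14.21 at day 6. Rpl39, at the exit tunnel, had 14.13 and 13.97 at AB2.2 day 0 and 14.16 and 14.12 at day 6, a change of 0.09 (adjusted p = 0.34). Both are near-saturated.

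The stalk proteins Rplp1 and Rplp2 and other bright members spanned narrow ranges. Rplp1, Rplp2, Rpl41 and Rps12 are near-saturated, and quantile normalization can reduce a shift at the top of each array's ranking. Their narrow ranges therefore cannot show that the RNA levels were steady. After median scaling Rplp1 and Rplp2 stood at -0.24 and -0.36 at day 6 over both lines, where the median gene had -0.37. Rplp1 and Rplp2, which form the stalk that binds elongation factors, changed by 0.01 and -0.03 at day 4 over both lines (adjusted p = 0.94 and 0.64). The log2 signal of Rplp1 lay between 14.82 and 15.07 on all 18 arrays. Rpl41, the shortest ribosomal protein, ranged from 14.7 to 15.03. Rps12 ranged from 14.65 to 15.07 and at day 4 stood 0.23 higher (adjusted p = 0.0082), or -0.01 after median scaling. Rplp0, the stalk base, changed differently in the lines, and their levels came closer. It was higher in PL2F8 by 0.44 at day 0 (adjusted p = 0.00058). At day 4 the line difference was -0.16 and not called (adjusted p = 0.092). In AB2.2 it had 9.27 and 9.26 at day 0 and 9.76 and 9.65 at day 4, a rise of 0.44 (adjusted p = 0.00018). In PL2F8 it had 9.7 and 9.72 at day 0 and 9.59 and 9.51 at day 4, a change of -0.16 (adjusted p = 0.072).

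The other named members had small changes or dim signals. Rps19, mutated in Diamond-Blackfan anemia, changed by 0.16 in AB2.2 at day 6 (adjusted p = 0.18), and Rpl38, needed for translation of Hox mRNAs in mouse embryos, by 0.29 (adjusted p = 0.028). The Rpl38 probe used is near-saturated, and another probe of Rpl38 changed by -0.41 in the same comparison. Over both lines at day 2 Rpl21 changed by -0.21 (adjusted p = 0.0089) and Rpl31 by -0.19 (adjusted p = 0.026). With all its probes averaged, Rpl31 changed by -0.01 (adjusted p = 0.92). Rpl6 and Rpl14, detected on 5 and 13 of 18 arrays, had mean log2 signals of 4.59 and 4.82, close to the lowest detected signal of 4.68 to 4.79 on the AB2.2 arrays. Rpl14 changed by -0.08 in AB2.2 at day 6 (adjusted p = 0.56) and was not detected on the dim PL2F8 day 6 arrays, at least 1.07-fold lower than day 0. Rpl6 changed by -0.05 at day 6 over both lines (adjusted p = 0.63).

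The lines were compared at day 4, where none of the dim arrays took part. The PL2F8 day 4 arrays were still dimmer than those of AB2.2, with mean signals of 283.6 and 286 against 384.1 and 391.2. The part of this in the day 4 line differences was not tested. In AB2.2 13 members were higher and 9 lower, against 27.4% and 23.6% of genes, and in PL2F8 19 were higher and 6 lower, against 26.4% and 24.7%. After median scaling, with all-gene medians of 0.09 and -0.24, the counts were 10 and 8 in AB2.2 and 3 and 17 in PL2F8. Of all 16113 genes, 5137 were then higher and 3152 lower in AB2.2, and 2245 and 7318 in PL2F8. The same direction was called in both lines for 15 members, against 31.8% of genes, and opposite directions for 0, against 3.12%. Among them were Rpl13a, Rpl22, Rpl29, Rpl36a, Rpl4, Rps10, Rps15 and Rps18, which rose, and Rpl30, Rpl7l1, Rps27a, Rps4x, Rps6 and Rps7, which fell. In PL2F8 not all of the named rises were called after median scaling, which left 3 members higher. Of the 25 members called there, 4 changed sign. The difference between the lines in their day 4 change was called higher in PL2F8 for 4 members and lower for 2, against 14.7% and 15.1% of genes. Rpl3l led with 1.32 (SE 0.17, adjusted p = 9.7e-05), followed by Rpl39l with 1.04 (adjusted p = 6e-04), Rplp0 with -0.6 (adjusted p = 0.00068) and Rpl13a with 0.57 (adjusted p = 0.0051), which was 0.07 after median scaling (adjusted p = 0.78).

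**Figure D4:**
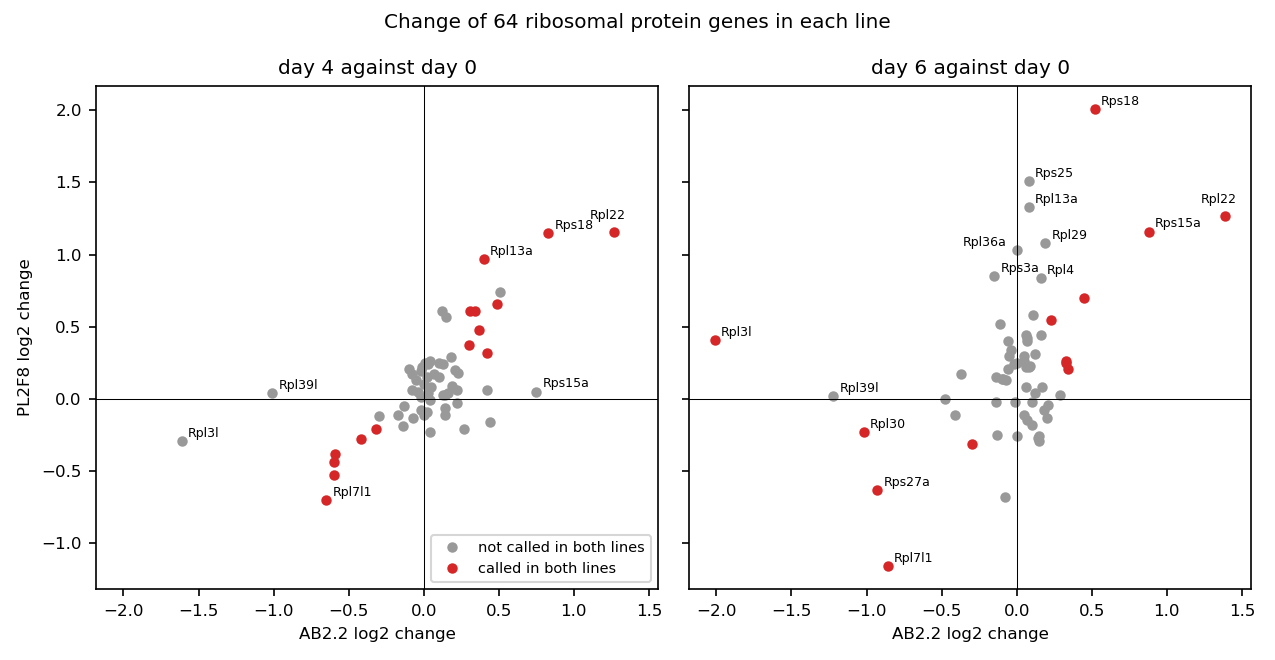
Log2 change from day 0 in AB2.2 (horizontal) and PL2F8 (vertical) of the 64 members at day 4 (left) and day 6 (right). Red points were called in both lines at an adjusted p below 0.05. At day 4 the red points lie near a common diagonal, with Rpl3l at -1.61 and -0.29, and at day 6 several members lie high in PL2F8 alone, on its 2 dim arrays.

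At days 6 and 8 all PL2F8 values come from the 3 dim arrays, so line and dimness cannot be told apart there. The counts also depended on the scaling. In AB2.2 at day 6, where all arrays were bright, 10 members were higher and 9 lower, against 28.4% and 26.6% of genes, with a median of 0.06. After median scaling 8 were higher and 8 lower, against 39.9% and 17.3%. In PL2F8 at day 6, 32 were higher and 9 lower, against 31.1% and 35%. After median scaling the counts were 1 and 56, against 6.67% and 69.9%. Over both lines at day 6, 26 were higher and 10 lower, against 34% and 34%, with a median of 0.12. After median scaling that median was -0.31, where all genes had -0.37. Over both lines at day 8, with 1 array per line, the members' median was 0.07, where all genes had -0.06. After median scaling it was -1.25, where all genes had -0.89. Without the dim arrays, where day 6 rests on AB2.2 alone, 7 were higher at day 6, against 30.7% of genes. Day 8 then rests on 1 AB2.2 array, with a median of -0.04 for members and -0.02 for all genes. The difference of the day 6 changes between the lines was called higher in PL2F8 for 21 members and lower for 4, against 25.6% and 29.9%. Rpl3l led with 2.42 (adjusted p = 1.9e-07) and was the same way after median scaling. Rps18 with 1.49, Rpl13a with 1.25 and Rpl29 with 0.89 stood at -0.1, -0.56 and -0.98 after it.

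Differences between the lines existed before LIF was withdrawn. At day 0, 6 members were called, 3 higher in PL2F8 and 3 lower, against 14.3% and 13.1% of genes. Rpl22 was higher in PL2F8 by 0.85 (SE 0.07, adjusted p = 4.2e-06), Rpl21 by 0.6 (adjusted p = 0.00021) and Rplp0 by 0.44 (adjusted p = 0.00058). Rps27a was lower in PL2F8 by -0.41 (adjusted p = 0.0016), Rpl30 by -0.38 (adjusted p = 0.0034) and Rpl19 by -0.23 (adjusted p = 0.045). Rpl21 had 6.91 and 7.09 in AB2.2 and 7.63 and 7.57 in PL2F8 at day 0. Rpl21 and Rpl22 were also higher in PL2F8 at day 2, by 0.5 and 0.3, and at day 4, by 0.66 and 0.74. Averaged over the 5 days, 26 members were called higher in PL2F8 and 4 lower, against 34% and 37.3%. Without the dim arrays, which leaves days 0, 2 and 4, the counts were 7 and 2, against 25.1% and 24.4%. Of all 64, 9 kept the sign of the difference at all 5 days, 7 of them higher in PL2F8. Of those that kept it, Rpl3l differed by 1.55 over the 5 days, Rpl21 by 1.03, Rpl22 by 0.75, Rpl4 by 0.44 and Rps27a by -0.33. Rpl13a with 0.67, Rpl39l with 0.64, Rps25 with 0.58 and Rps3a with 0.52 also differed by more than Rpl4. After median scaling Rpl21, Rpl22 and Rpl4 turned to -0.13, -0.49 and -0.8, where the median gene had -0.69.

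Further probes of the same members give a check on those results. Of 26 such probes of 19 members, 2 moved against the probe used at day 6 over both lines, Rpl38 with -0.2 against 0.16 and Rps2 with -0.43 against 0.13. Within the lines 11 moved against it at AB2.2 day 6, 10 at PL2F8 day 4 and 9 at PL2F8 day 6. At PL2F8 day 6 both other probes of Rpl21 gave -0.42 against 0.17, and those of Rpl31 gave 0.55 and 0.32 against -0.08. Rps24, whose transcripts are spliced to alternative last exons, was singled out after its values were seen. Its brightest probe changed by 0.24 in PL2F8 at day 4, another by 0.48 and a further one by 1.68. A probe can also take up RNA of near-identical copies of a gene, which this family has in number, and probe sequences were not used here.

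The other lists of translation genes are given as counts and medians, and their difference from the members was not tested. Of 70 mitochondrial ribosomal proteins tested, 4 were higher and 35 lower at AB2.2 day 4, with a median of -0.22, and 3 and 43 at AB2.2 day 6, with a median of -0.35. In PL2F8 at day 4 the counts were 7 and 40, with a median of -0.32. All genes had 27.4% higher and 23.6% lower, 28.4% and 26.6%, and 26.4% and 24.7% in the same comparisons. After median scaling the medians were -0.15, -0.12 and -0.85, against 0.09, 0.17 and -0.24 for all genes. The counts were 4 and 25, 11 and 22, and 0 and 62. Of all 16113 genes, 5137 were then higher and 3152 lower, 6435 and 2781, and 2245 and 7318. At AB2.2 day 6 Mrpl35 fell by 1.28, Mrpl18 by 1.08 and Mrpl46 by 0.62, while Mrpl23 rose by 0.47. Of 21 factors that assemble ribosomes, 4 were higher and 10 lower at AB2.2 day 4, and 3 and 13 at AB2.2 day 6, where the median was -0.42 and, after median scaling, -0.15. Median scaling gave 4 higher and 7 lower on both days. At PL2F8 day 2, 8 of them were higher and 1 lower, against 17.5% and 19% of all genes. After median scaling 3 were higher and 2 lower, against 1775 and 4783 of all genes. Nop56, of the complex that methylates rRNA, rose by 0.54 at day 2 over both lines and fell by 0.78 at AB2.2 day 6. Bop1 and Rrp12, which act in rRNA processing, fell by 1.4 and 0.81 at AB2.2 day 6.

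At AB2.2 day 6, where all arrays were bright, 5 of 27 translation initiation factors were higher and 11 lower, with a median of -0.15, against 28.4% and 26.6% of all genes. Eif4g2 changed by -0.83, Eif6 by -0.55, the eIF4E inhibitor Eif4ebp1 by -0.63 and Eif5b by 0.4, all called. Of 9 elongation and release factors 0 were higher and 5 lower, with a median of -0.35, among them Gspt1 at -0.55, Eef1e1 at -0.48 and Etf1 at -0.35. Of 9 further ribosomal and TOP mRNA genes 2 were higher and 1 lower, with Hnrnpa1 at 0.56, Nap1l1 at -0.52 and the small-subunit protein Rack1 at -0.13 (adjusted p = 0.33). Of 12 RNA polymerase I genes 2 were higher and 7 lower, with Polr1d at 0.64, Taf1a at 0.72 and Polr1e at -0.77. Of 13 genes of mTORC1 and its S6 kinases 3 were higher and 4 lower, with Mlst8 at 0.77, Tsc2 at -0.62 and Tsc1 at -0.06 (adjusted p = 0.6). After median scaling, under which 6435 genes were higher and 2781 lower, the higher and lower counts were 6 and 6 for initiation, 0 and 3 for elongation and release, 1 and 1 for the further TOP genes, 3 and 4 for RNA polymerase I and 7 and 2 for mTORC1, so the balance within these lists depends on the scaling.

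**Figure D5:**
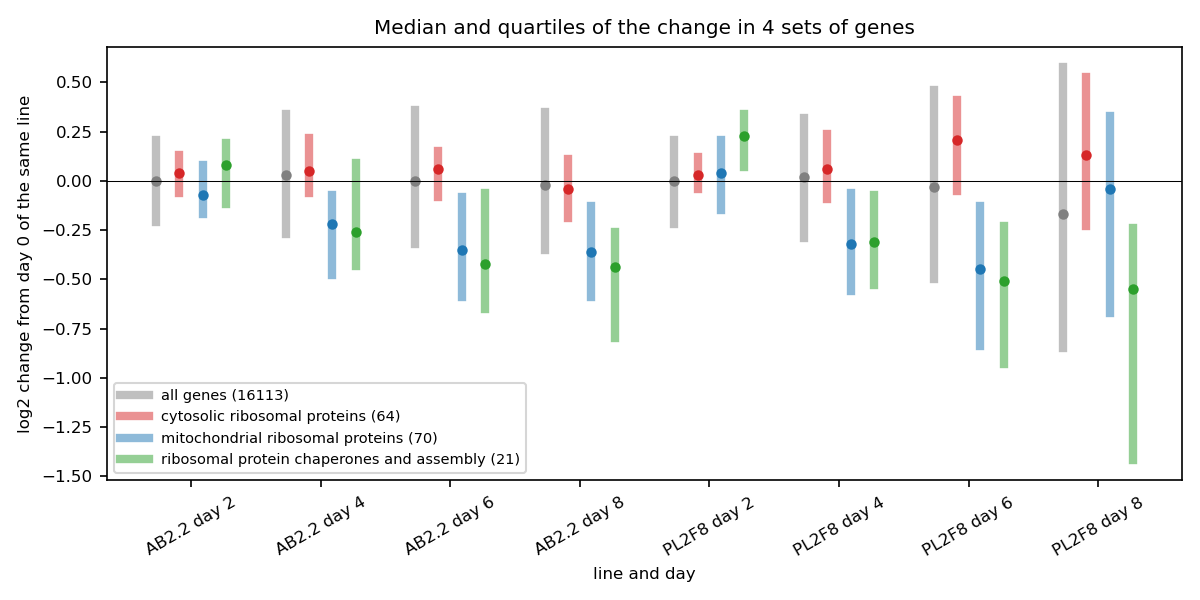
Change from day 0 in each line and day for all 16113 genes, 64 cytosolic ribosomal proteins, 70 mitochondrial ribosomal proteins and 21 assembly factors. Points are medians and bars span the quartiles over genes. At AB2.2 day 6 the medians are 0, 0.06, -0.35 and -0.42.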

How the data were processed

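RNA from 18 samples was hybridized to Illumina mouse bead arrays. The deposited probe intensity of each array is the scanner signal, not yet normalized between arrays, and its detection p-value comes with it, per the file headers; the values table of the series holds the authors' intensity per gene name on a scale not given in the sources used here. Probes carry no gene name in the scanner table, so each line of the values table was matched to the probe, or mean of neighbouring probes, with the same values on all arrays (30507 of 30848 lines), after 445 lines with shifted fields were left out. Signals were background-corrected with limma's normexp, with the 936 negative controls that those p-values imply, given an offset of 16, put on the log2 scale and quantile normalized. Probes with a detection p under 0.05 on 2 or more arrays were retained, and a gene was represented by its brightest probe, giving 16113 genes.

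Differences were tested with limma 3.58.1 in R 4.3.3, with a mean per line and day over all 18 arrays, 8 residual degrees of freedom and Benjamini-Hochberg adjustment over all genes. A gene was called at an adjusted p below 0.05. Where a probe was not detected in a group, a bound from the lowest detected signal is given as "at least". On simulated data for day 6, changes of 1 on the log2 scale were recovered at 99% and of 0.5 at 68%. The simulation used the same spread for a gene on every array, with no dim arrays and no normalization step. These rates therefore may not hold for the dim PL2F8 arrays. The number of arrays limits the precision, and day 8 has 1 array per line. No 2 replicate arrays were identical.

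The members and the lists of other genes were chosen with earlier results of these data known. Members named with values were the 5 called highest and 5 called lowest at day 6, and 3 and 3 at days 2 and 4. Between the lines they were at most 4 and 4, each with the same sign of the difference on all days. Only Rps27a was lower among them. Also named were those with the 4 smallest p for the difference between lines at days 4 and 6. The rest were the 3 brightest and 3 dimmest, the paralogs, and a fixed set of well-known members. The lists were mitochondrial ribosomal proteins, assembly factors, initiation, elongation and release factors, further TOP mRNA genes, RNA polymerase I, mTORC1, and markers of ES cells, visceral endoderm and feeder fibroblasts. Alternatives were no background correction, median scaling, no detection filter, the mean of all probes, the authors' values table, the replicate number as a block, array weights, and leaving out the dim arrays, each replicate, or near-saturated members. Shared replicate numbers did not pair the arrays. Values of some single members are not reported here.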

Additional observations from a re-analysis of the deposited data

Results flagged for a closer look

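The change from day 0 differed between PL2F8 and AB2.2 by limma's test of the difference itself for the following members, each given as the PL2F8 change minus the AB2.2 change on the log2 scale. At day 4 none of the dim arrays took part, although the PL2F8 arrays were dimmer than those of AB2.2. The difference was 1.32 for Rpl3l, 1.04 for Rpl39l, -0.6 for Rplp0 and 0.57 for Rpl13a. After median scaling it was 0.96, 0.87, -0.87 and 0.07 (adjusted p = 0.78 for Rpl13a). At day 6, where the PL2F8 arrays were dim, it was 2.42 for Rpl3l, 1.49 for Rps18, 1.25 for Rpl13a and 0.89 for Rpl29, and after median scaling 0.69, -0.1, -0.56 and -0.98.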

How the results depend on the processing

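The counts of called members depended most on the scaling between arrays. With median scaling in place of quantile normalization, the higher and lower members numbered 4 and 3 at day 2, 6 and 16 at day 4, 3 and 44 at day 6, 0 and 61 at day 8, 1 and 56 at PL2F8 day 6, 2 and 58 between the lines, and 2 and 10, and 2 and 51, for the difference between lines at days 4 and 6. Under that scaling 15.1% of all genes were higher and 33.1% lower at day 2, 25% and 37% at day 4, and 16.5% and 57.5% at day 6. At PL2F8 day 6 the shares were 6.67% and 69.9%, and between the lines 6.67% and 71.4%. For the difference between lines they were 5.95% and 44.1% at day 4, and 3.75% and 72.3% at day 6. The median of all genes then stood at -0.37 at day 6, -0.89 at day 8 and -1.08 at PL2F8 day 6, and the cause was not tested. Of the named results followed through every alternative, 13 changed direction under it. Further values that turned, within the lines and in members not followed, stand beside their results above. At day 6 these were Rpl13a (-0.1), Rplp1 (-0.24), Rps19 (-0.01), Rplp0 (-0.59), Rplp2 (-0.36), Rpl3 (-0.25) and Rpl39 (-0.2). Between the lines they were Rpl21 (-0.13), Rpl22 (-0.49) and Rpl4 (-0.8), and for the day 6 difference Rps18 (-0.1), Rpl13a (-0.56) and Rpl29 (-0.98). Without the 3 dim arrays, days 6 and 8 rest on AB2.2 alone, and the line difference rests on days 0, 2 and 4. Then 7 members were higher at day 6, against 30.7% of genes. Between the lines 7 were higher and 2 lower, against 25.1% and 24.4%. With the mean of all probes 16 were higher at day 2 and 7 lower between the lines. For the difference between lines 8 were then higher at day 4 and 7 lower at day 6. The median gene stood at 0, -0.01, 0 and -0.02 in those comparisons. Array weights left 5 lower at PL2F8 day 6, and the authors' values 1 lower for the day 4 difference.

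Leaving out 1 array at a time gave 6 to 10 higher and 3 to 7 lower at day 2, 17 to 23 and 9 to 11 at day 4, 23 to 27 and 9 to 11 at day 6, 19 to 20 and 13 to 15 at day 8, 6 to 10 and 9 at AB2.2 day 6, 23 to 32 and 5 to 9 at PL2F8 day 6, 24 to 27 and 3 to 5 between the lines, and 4 to 5 and 1 to 3, and 17 to 23 and 2 to 5, for the differences at days 4 and 6. The lowest count at day 2 came without PL2F8 day 2 replicate 2, at AB2.2 day 6 without day 0 replicate 1 or day 6 replicate 2, and at PL2F8 day 6 (5 lower) without day 0 replicate 1. With the replicate block 22 were higher and 10 lower at day 4 and 27 and 10 at day 6, and it moved no count by over 1.5 times. The correlation of same-numbered arrays lay between -0.03 and 0.04. Quantile normalization on the linear scale, chosen after seeing the data, moved no count by over 1.5 times. Dim signals limit Rpl6, Rpl14, Rpl39l, Rps15a and Rps18, and near-saturated signals limit 30 members.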
